A study of Homo sapiens with 6 samples.

Results

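Of the 20026 gene rows analysed, 39 belong to genes of glycolysis and of the cellular response to low oxygen, chosen by gene name. They fall into 3 transporters of glucose and lactate, 17 glycolytic enzymes, 4 kinases that regulate glycolysis or the use of pyruvate, HIF1A with 2 prolyl hydroxylases, and 12 other hypoxia response genes. They were followed by RNA sequencing in HCT116, an established human colon carcinoma cell line, grown as 3 kinds of stable cells with 2 libraries each. The control cells carry no TEAD4 change in the labels, the wild type cells over-express the transcription factor TEAD4, and the K178R cells over-express TEAD4 with a lysine-to-arginine change. The labels give no treatment, oxygen tension or time for any group, and do not say whether a line is 1 clone or a pool, or which promoter drives TEAD4. Nothing in the labels states that the 2 libraries of a group came from separate cultures, so a p-value here compares a difference with the scatter of these libraries alone, and that scatter may be technical. One label disagrees with itself: the second wild type library is titled TEAD4 but its genotype entry names TEAD5.

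TEAD4 itself checks the over-expression given in the labels. Values per gene cannot show the K178R change, so that part of the labels was not checked. Its level was 16.6 and 17.5 FPKM (sequenced fragments scaled by transcript length and by library size) in the control libraries, 86.4 and 84.4 in the wild type libraries, and 71.2 and 72.3 in the K178R libraries. Wild type rose by 2.26 ± 0.03 and K178R by 2.01 ± 0.03 on the log2 scale against control, and K178R lay below wild type (log2 change -0.25 ± 0.03 (SE), limma adjusted p = 0.0013). The 6 files sum to between 283195.4 and 305328.5 FPKM. They give no read totals, and the steps of the lowest values put the libraries' relative depth between 0.925 and 1.05 of the first control library. Of 10 colon epithelial markers, 6 passed the filter on low values, CEACAM5 was listed at 0 throughout, and VIL1, LGALS4 and GPA33 did not exceed 0.108 FPKM. Their summed level was 2634 to 2681 FPKM in control, 1796 to 1850 in wild type and 2851 to 2884 in K178R, led by KRT8. Leukocyte markers summed to between 1.14 and 2.54 FPKM, fibroblast markers to between 1.53 and 3.78 and endothelial markers to between 1.37 and 2.46, with CD3E, COL1A2 and DCN listed at 0 in all 6 libraries. CORO1A made up most of the leukocyte sum and COL1A1 most of the fibroblast sum, and both sums were highest in wild type. Whether these marker differences play a part in the results below was not tested.

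Glycolysis converts glucose taken up through membrane transporters into pyruvate, which is either passed to mitochondria or reduced to lactate and exported. When oxygen is short, the HIF alpha subunits escape hydroxylation by the EGLN prolyl hydroxylases and the degradation that follows, pair with ARNT, and bind short DNA motifs near genes of glucose uptake, glycolysis, pH control and angiogenesis. Colon carcinoma cells are known to run glycolysis strongly even with oxygen present. TEAD factors bind DNA and recruit the coactivators YAP and TAZ of the Hippo pathway.

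The promoters below belong to members that the results turn on: SLC2A1 and ADM, which rose in both TEAD4 lines, ENO2, EGLN1 and BHLHE40, which rose in the wild type line and were lower in K178R than in wild type, and PKM, which fell in both. Each runs 5′ to 3′ on the gene's strand, from 250 bases before the annotated start to 30 bases after it, as given by RefSeq on GRCh38.p14. Capitals mark the letters of the HIF core motif, ACGTG or GCGTG, on either strand. The SLC2A1 promoter lies at chr1:42958839-42959118 on the minus strand, ENO2 at chr12:6914330-6914609 on the plus strand, and PKM at chr15:72231161-72231440 on the minus strand. EGLN1 lies at chr1:231422258-231422537 on the minus strand, ADM at chr11:10304823-10305102 on the plus strand, and BHLHE40 at chr3:4979187-4979466 on the plus strand.
SLC2A1: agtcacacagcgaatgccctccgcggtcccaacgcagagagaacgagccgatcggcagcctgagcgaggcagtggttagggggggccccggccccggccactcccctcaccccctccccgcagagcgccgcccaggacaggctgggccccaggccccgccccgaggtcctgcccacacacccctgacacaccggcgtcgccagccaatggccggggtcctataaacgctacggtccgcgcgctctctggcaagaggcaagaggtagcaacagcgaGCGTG
ADM: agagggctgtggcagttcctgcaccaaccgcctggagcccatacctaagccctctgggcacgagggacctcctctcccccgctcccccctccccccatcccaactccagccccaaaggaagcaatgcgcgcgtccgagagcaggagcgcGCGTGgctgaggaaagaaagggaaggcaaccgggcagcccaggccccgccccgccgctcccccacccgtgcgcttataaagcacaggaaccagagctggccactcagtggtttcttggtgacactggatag
ENO2: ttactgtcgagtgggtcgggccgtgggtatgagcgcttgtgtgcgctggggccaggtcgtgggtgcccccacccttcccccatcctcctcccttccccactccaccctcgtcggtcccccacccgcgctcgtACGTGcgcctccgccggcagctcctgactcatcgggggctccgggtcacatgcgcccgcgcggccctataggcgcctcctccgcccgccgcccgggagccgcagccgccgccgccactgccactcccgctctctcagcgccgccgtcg
EGLN1: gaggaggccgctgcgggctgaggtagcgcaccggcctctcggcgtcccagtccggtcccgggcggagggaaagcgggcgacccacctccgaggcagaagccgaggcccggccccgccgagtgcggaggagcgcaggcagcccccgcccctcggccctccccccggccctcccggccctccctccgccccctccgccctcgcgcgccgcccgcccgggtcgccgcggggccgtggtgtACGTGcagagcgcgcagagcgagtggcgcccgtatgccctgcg
BHLHE40: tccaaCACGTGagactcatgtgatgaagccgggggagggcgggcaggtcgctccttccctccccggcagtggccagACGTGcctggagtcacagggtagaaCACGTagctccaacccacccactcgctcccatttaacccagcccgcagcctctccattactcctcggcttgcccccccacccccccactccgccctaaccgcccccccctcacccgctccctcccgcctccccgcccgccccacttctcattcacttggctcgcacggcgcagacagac
PKM: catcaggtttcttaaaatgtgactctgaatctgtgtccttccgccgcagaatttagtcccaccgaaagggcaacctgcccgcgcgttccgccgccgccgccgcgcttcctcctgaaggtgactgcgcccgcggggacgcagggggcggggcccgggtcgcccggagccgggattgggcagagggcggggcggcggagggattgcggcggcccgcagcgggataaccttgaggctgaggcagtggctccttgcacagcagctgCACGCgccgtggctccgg
Each of the 6 windows holds the core motif, BHLHE40 at 4 positions of which the first pair overlap in the palindrome CACGTG, and the others at 1. In SLC2A1 and PKM the match lies after the start, and in the other 4 before it. A member was matched only where exactly 1 RefSeq window carried its name, a rule not applied to the set of all windows. Such windows of 300 bases, from 250 before to 50 after the start, were matched for 22 of the 39 members, and 17 were unmatched. Of these 22 windows, 19 (86.4%) hold ACGTG or GCGTG on either strand, beside 17012 (48.4%) of all 35116 windows. The windows of PGAM1, P4HA2 and EGLN3 hold neither, although EGLN3 was called in the same directions as the printed EGLN1. The TEAD motif letters GGAATG, on either strand, occur in 3 of the 22 windows (13.6%), those of PGAM1, ENO1 and P4HA2, beside 14.0% of all windows. None of the 6 printed promoters holds GGAATG. Such matches describe these letters in these windows and do not show a bound site. The members were chosen as genes of glycolysis and the response to low oxygen, and windows were not matched for base composition. No difference between the members' shares and those of all windows was tested.

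Changes between the lines were tested with limma on log2(FPKM + 1) over the 11445 genes that reached 0.5 FPKM in at least 2 libraries, and a gene was called at a Benjamini-Hochberg adjusted p under 0.05 over all of them. Every log2 change below uses this scale, on which genes with low FPKM change less than their ratio does, and the errors are standard errors. Whether the libraries of 2 groups overlap is given as a description. With 2 libraries a group, groups without overlap reach an exact two-sided permutation p of only 0.333. The share of all genes without overlap was not counted. Of the 39 members, 38 passed the filter. Only CA9, a carbonic anhydrase at the cell surface, did not, at 0.117 and 0.266 FPKM in control, 0.0433 and 0.0880 in wild type, and 0.200 and 0.0827 in K178R. The other members spanned from 0.503 FPKM for ANKRD37 to 1935 FPKM for GAPDH.

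Against control, the wild type line had 17 members higher, 11 lower and 10 without a call. That is 44.7% higher and 28.9% lower of the 38 tested, where over all genes 37.6% were called higher and 12.2% lower. The members' median log2 change was 0.08, beside 0.09 over all genes. In the K178R line 8 members were higher than control, 13 lower and 17 without a call, or 21.1% higher and 34.2% lower, while 11.7% of all genes were called higher and 11.1% lower. Here the median was -0.05 over the members and 0.00 over all genes. Directly against wild type, K178R had 7 members higher (18.4%) and 17 lower (44.7%), where all genes gave 10.4% higher and 34.5% lower, and the medians were -0.08 in both. All 3 comparisons share libraries with each other, so their values are given side by side and are not independent. RNA from a whole culture was measured, so fewer cells that make a transcript and less of it per cell cannot be told apart.

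In the wild type line, more glycolytic enzymes were lower than higher against control, and most hypoxia response genes were higher. Among 17 glycolytic enzymes, 9 fell (52.9%) and 3 rose (17.6%), with a median log2 change of -0.10. Among the 11 tested hypoxia response genes outside glycolysis and the HIF axis, 8 rose (72.7%) and 0 fell, with a median of 0.29. Over all genes 12.2% fell and 37.6% rose. Under the median-of-ratios and upper-quartile scaling described below, 10 and 11 enzymes fell, and 6 hypoxia genes rose under each. With limma without trend, 8 enzymes fell and 8 hypoxia genes rose. Without either control library or the second wild type library, fewer enzymes were called lower and fewer hypoxia genes higher. The 3 other groups were smaller: 1 transporter rose and 2 fell, 3 of 4 regulatory kinases rose (0 without the first control or the first wild type library, 1 without the second control library, and 1 under both scalings), and both prolyl hydroxylases rose. Directly between K178R and wild type, 9 of the 11 hypoxia genes were lower (81.8%) and 1 higher (9.1%) in K178R. Their median was -0.34. Of the 17 enzymes, 5 were lower (29.4%) and 3 higher (17.6%). All genes gave 34.5% lower and 10.4% higher, so the share of enzymes called lower was below that of all genes. The enzymes' split turned to 2 lower and 7 higher under both scalings described below, and 3 were lower without the first wild type or the first K178R library. Against control, 8 enzymes were lower (47.1%) and 2 higher (11.8%) in K178R, with a median of -0.07. Its hypoxia genes split into 3 higher and 3 lower (27.3% each), with a median of 0.00. With no filter on low values this split was 1 higher and 2 lower. Over all genes, 11.1% were lower and 11.7% higher in K178R than in control. Only 5 enzymes were lower there without either control library or the second K178R library. Of the hypoxia genes, 1 was higher without the first control or the first K178R library, and 1 was lower without either control library.

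**Figure D1:**
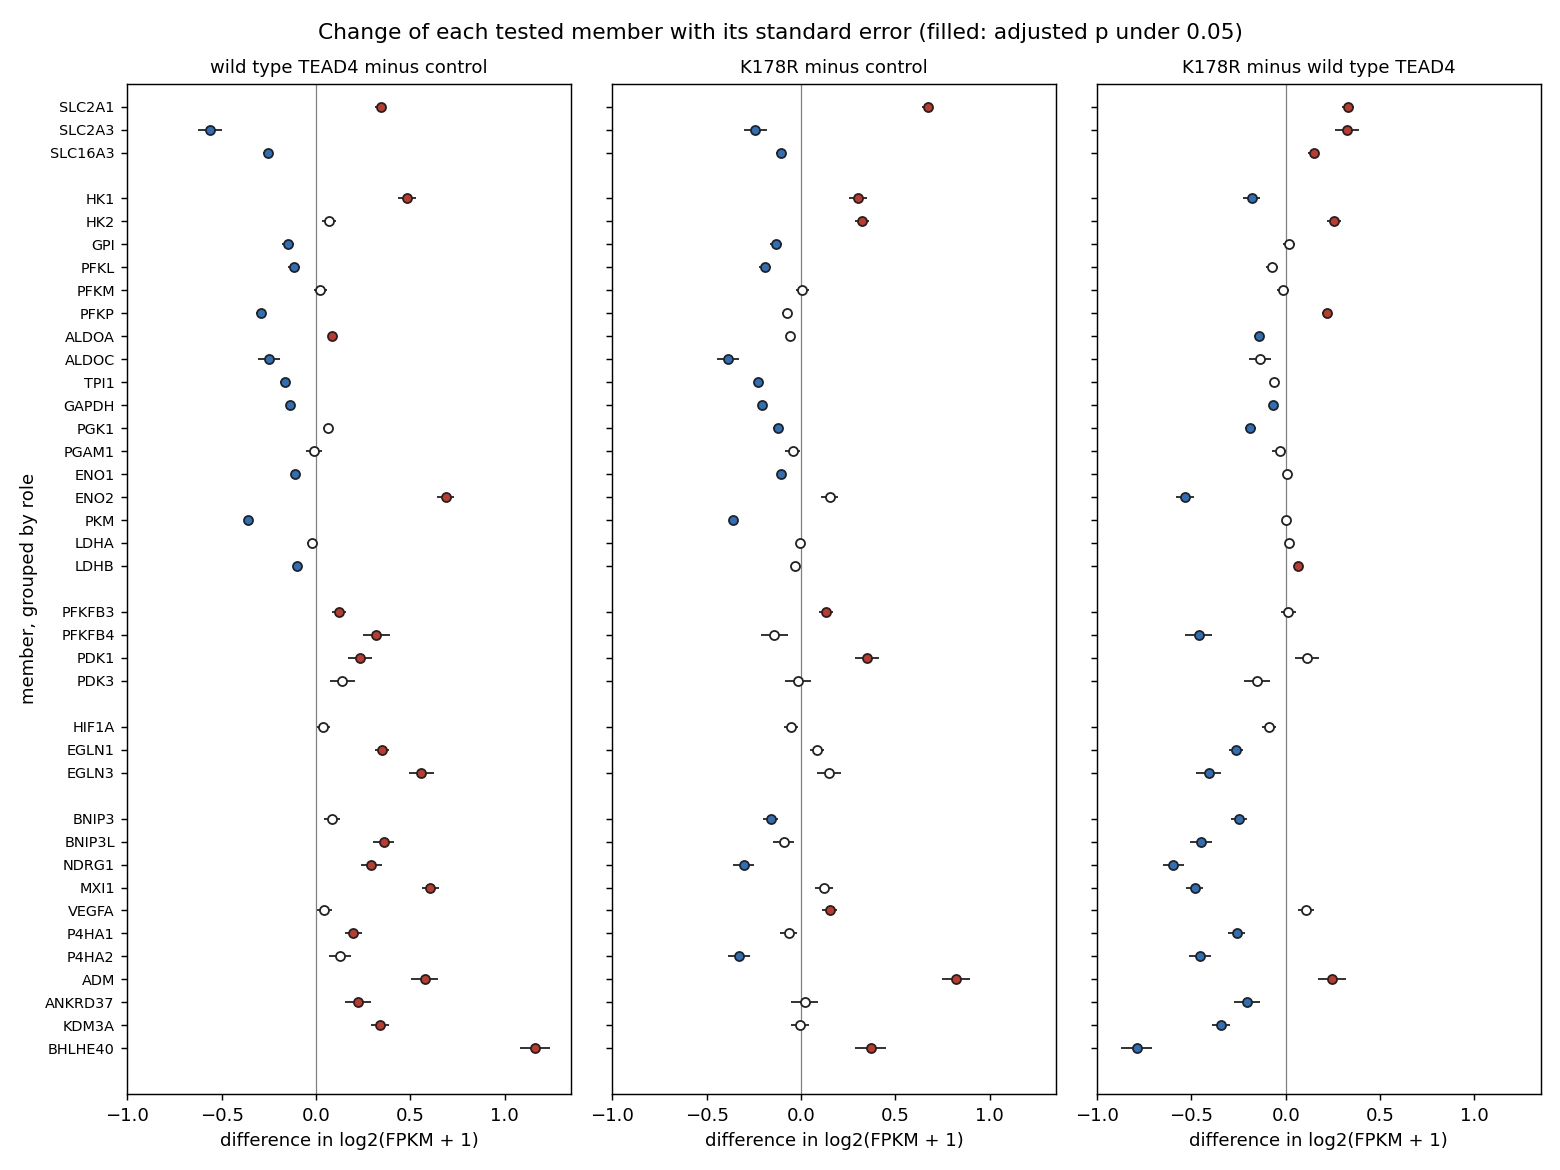
Difference in mean log2(FPKM + 1) for each of the 38 tested members in the 3 comparisons, on a linear axis, with bars for the standard error; red points are called higher, blue lower, and open points are without a call. The hypoxia response genes at the bottom lie at or right of 0 in wild type against control, and all but VEGFA and ADM lie left of 0 in K178R against wild type.

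These counts depend in part on how libraries are scaled. The deposited values put the median of all genes in wild type 0.09 above control on the log2 scale. Scaling by the median of ratios moved it to 0.02 and upper-quartile scaling to 0.00, and the calls over all genes went from 4309 higher and 1402 lower to 2938 and 2418, and to 2757 and 2654. The members' split of 17 higher and 11 lower became 12 and 12, and 12 and 13. In K178R against wild type, the split over all genes went from 1187 higher and 3952 lower to 2170 and 2588, and to 2265 and 2510. There the members' split of 7 higher and 17 lower became 12 and 13 under both scalings. Of the 28 members called in the wild type line, 11 higher and 8 lower were called in the same direction in every alternative tried. In K178R against control this held for 4 higher and 5 lower, and in K178R against wild type for 5 higher and 13 lower.

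SLC2A1 (GLUT1), the widely expressed facilitative glucose transporter, was the main one of its family here. Its level was 60.6 and 60.2 FPKM in control, 76.9 and 76.9 in wild type, and 94.7 and 99.1 in K178R. The 3 lines form separate steps, with control lowest and K178R highest. The log2 change was 0.34 ± 0.03 in wild type against control (adjusted p = 1.5e-04), 0.67 ± 0.03 in K178R against control (adjusted p = 9.3e-06) and 0.33 ± 0.03 in K178R against wild type (adjusted p = 2.5e-04). SLC2A1 was called higher in all 3 comparisons under every alternative tried.

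SLC2A3 (GLUT3), a transporter with high affinity for glucose, ran the other way at a much lower level. It was measured at 1.94 and 1.83 FPKM in control, 1.01 and 0.885 in wild type, and 1.43 and 1.44 in K178R. The groups did not overlap, with wild type lowest and K178R between it and control. It fell by 0.56 ± 0.06 in wild type (adjusted p = 4.3e-04) and was higher in K178R than in wild type (0.32 ± 0.06, adjusted p = 0.0055). The fall in K178R against control (-0.24 ± 0.06, adjusted p = 0.032) was lost without any 1 of the control or K178R libraries, at adjusted p from 0.085 to 0.150. SLC2A3 made up 3.09% and 2.95% of the FPKM of these 2 transporters in control, 1.30% and 1.14% in wild type, and 1.49% and 1.43% in K178R.

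SLC16A3 (MCT4), the exporter of lactate in strongly glycolytic cells, showed the same order as SLC2A3. Its libraries read 152 and 150.1 FPKM in control, 129 and 124 in wild type, and 139 and 141 in K178R. Again no group overlapped another. It fell by 0.25 ± 0.03 in wild type (adjusted p = 3.8e-04) and was 0.15 ± 0.03 higher in K178R than in wild type (adjusted p = 0.0045). The fall by 0.11 in K178R against control (adjusted p = 0.031) was also lost without any 1 control or K178R library, at adjusted p from 0.093 to 0.144.

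**Figure D2:**
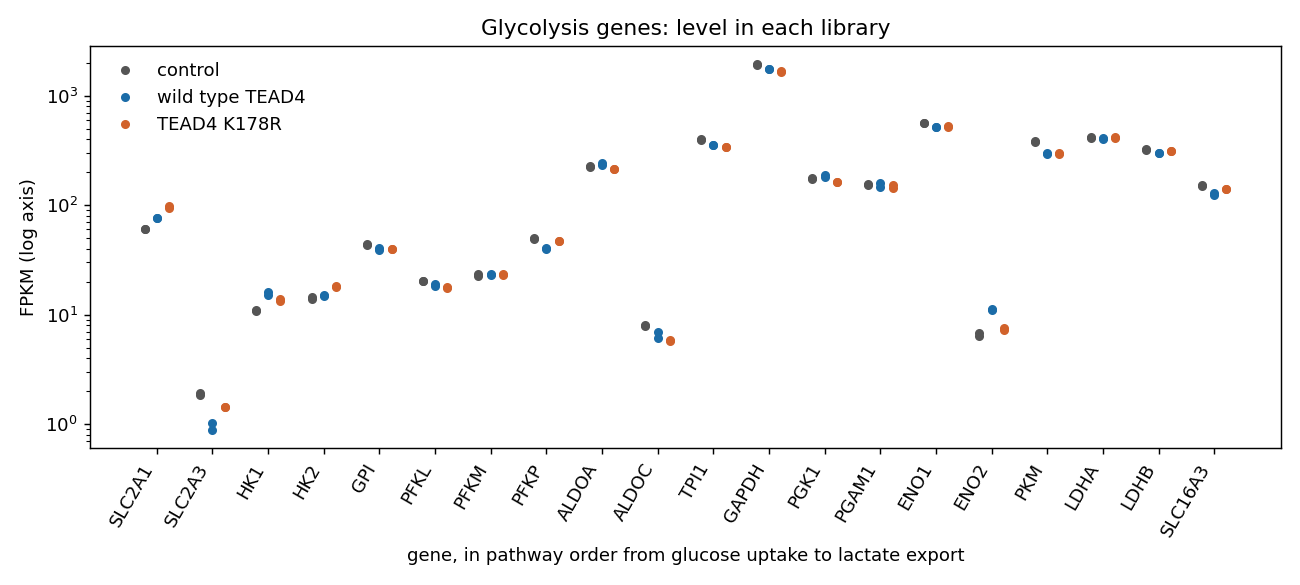
FPKM (log axis) of the glucose transporters, the glycolytic enzymes and the lactate exporter in each of the 6 libraries, in pathway order; grey points are control, blue wild type TEAD4 and orange K178R. GAPDH is highest at 1649 to 1935 FPKM, and changes between the lines are small beside the range between genes, except for low genes such as SLC2A3 and ENO2.

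Hexokinases phosphorylate glucose and so trap it in the cell. HK1, the broadly expressed form, read 10.9 and 10.7 FPKM in control, 16.1 and 14.9 in wild type, and 13.2 and 13.9 in K178R. Wild type was highest, control lowest, and no groups overlapped. HK1 rose by 0.48 ± 0.05 in wild type (adjusted p = 2.4e-04) and by 0.30 ± 0.05 in K178R (adjusted p = 0.0043), and both calls held in every alternative. Its lower level in K178R than in wild type (-0.18 ± 0.05, adjusted p = 0.017) was lost under both scalings and without the first wild type or first K178R library (adjusted p = 0.092 for each of these 2 libraries).

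HK2, the inducible form often abundant in tumours, followed another pattern. It was at 14.6 and 13.9 FPKM in control, 15.2 and 14.8 in wild type, and 18.0 and 18.1 in K178R. Only the K178R libraries stood apart by a wide gap. HK2 rose by 0.32 ± 0.04 in K178R against control (adjusted p = 0.0012) and by 0.26 ± 0.04 against wild type (adjusted p = 0.0017), while wild type against control gave 0.07 ± 0.04 (adjusted p = 0.17). HK1 made up 42.8% and 43.5% of the FPKM of both hexokinases in control, 51.5% and 50.3% in wild type, and 42.3% and 43.4% in K178R. These shares are given as a description: the smallest p of an exact two-sided permutation test with 2 libraries a group is 0.333, and no other test of them was run.

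The next steps are catalysed by GPI, which turns glucose-6-phosphate into fructose-6-phosphate, and by the 3 phosphofructokinases, which commit it to glycolysis. PFKP, the platelet form and the most abundant of the 3, read 49.6 and 49.4 FPKM in control, 40.6 and 39.8 in wild type, and 47.0 and 47.0 in K178R. Wild type lay well below both other lines. PFKP fell by 0.29 ± 0.03 in wild type (adjusted p = 1.9e-04) and was 0.22 ± 0.03 higher in K178R than in wild type (adjusted p = 8.6e-04), while K178R against control gave -0.07 (adjusted p = 0.088), called lower under upper-quartile scaling (adjusted p = 0.046). PFKL, the liver form, fell by 0.12 in wild type (adjusted p = 0.020) and by 0.19 in K178R (adjusted p = 0.0067), from a control mean of 20.3 ± 0.05 FPKM (SD, n = 2). The wild type call of PFKL was lost without either control library (adjusted p = 0.078 and 0.072) or without the second wild type library (adjusted p = 0.0945). PFKM, the muscle form, had means of 22.9 ± 0.52, 23.3 ± 0.49 and 23.0 ± 0.27 FPKM (SD, n = 2) in control, wild type and K178R and no call. The share of PFKP in the 3 enzymes was 53.2% and 53.6% in control, 48.9% and 49.1% in wild type, and 53.4% and 53.8% in K178R. GPI fell by 0.15 ± 0.03 in wild type (adjusted p = 0.0068). Its fall by 0.13 in K178R (adjusted p = 0.023) was lost without any 1 control or K178R library, at adjusted p from 0.080 to 0.112.

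**Figure D3:**
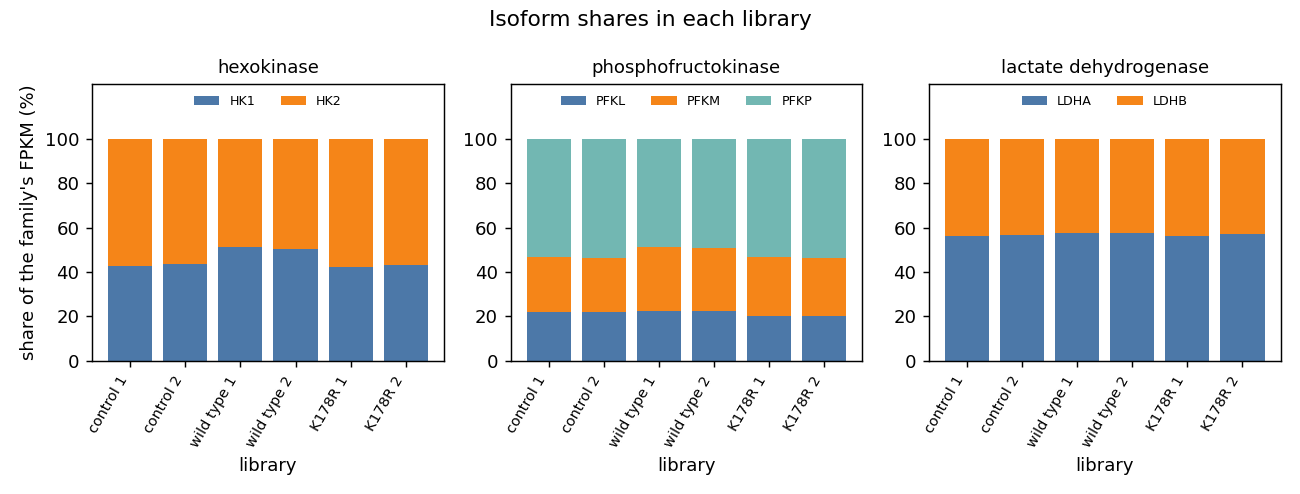
Share of each isoform in the summed FPKM of its family (percent, stacked bars from 0) in each of the 6 libraries for hexokinase, phosphofructokinase and lactate dehydrogenase. HK1 exceeds 50% in both wild type libraries and lies between 42.3% and 43.5% in the other 4, and PFKP is below 50% in the wild type libraries alone.

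Aldolase splits fructose-1,6-bisphosphate. ALDOA, its main form here, had means of 224 ± 2.05, 238 ± 4.77 and 215 ± 0.05 FPKM (SD, n = 2) in control, wild type and K178R. It was called higher in wild type by 0.09 (adjusted p = 0.021), but this became -0.01 and -0.02 under the 2 scalings and was lost without any 1 of the first wild type and the 2 control libraries (adjusted p from 0.059 to 0.109). In K178R it was below wild type by 0.14 ± 0.02 (adjusted p = 0.0029), a call lost under both scalings. ALDOC, the brain form, read 7.79 and 8.03 FPKM in control, 6.90 and 6.09 in wild type, and 5.85 and 5.77 in K178R. Both TEAD4 lines lay below control without overlap. ALDOC fell by 0.39 ± 0.06 in K178R (adjusted p = 0.0039) in every alternative, and by 0.25 ± 0.06 in wild type (adjusted p = 0.010), where the call was lost without the second control library (adjusted p = 0.059).

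Below aldolase, the pathway interconverts the triose phosphates and enters its payoff phase, which yields ATP and NADH, and GAPDH of this phase was the most abundant member. TPI1, which interconverts the triose phosphates, and GAPDH, which oxidises glyceraldehyde-3-phosphate, fell in both lines. TPI1 went from 397 ± 8.77 FPKM in control to 354 ± 3.31 in wild type and 339 ± 0.55 in K178R (SD, n = 2), with log2 changes of -0.17 (adjusted p = 0.0012) and -0.23 (adjusted p = 7.5e-04). GAPDH went from 1915 ± 27.2 FPKM to 1742 ± 6.67 and 1663 ± 18.8 (SD, n = 2), with log2 changes of -0.14 (adjusted p = 0.0015) and -0.20 (adjusted p = 6.5e-04). These falls are modest, to 0.910 and 0.868 of the control mean for GAPDH, and held in every alternative. GAPDH was also called lower in K178R than in wild type (-0.07, adjusted p = 0.032), which turned to 0.02 under both scalings and was lost without any 1 of the 6 libraries (adjusted p from 0.053 to 0.167). PGK1, which makes ATP from 1,3-bisphosphoglycerate, had 176 ± 2.53, 184 ± 5.15 and 162 ± 0.39 FPKM (SD, n = 2). It was below wild type in K178R by 0.19 ± 0.03 (adjusted p = 0.0017). Its fall against control in K178R (-0.12, adjusted p = 0.017) was lost without any 1 control or K178R library, at adjusted p from 0.058 to 0.101. PGAM1, which moves the phosphate of phosphoglycerate, was at 154 ± 2.18, 152 ± 7.45 and 149 ± 6.12 FPKM (SD, n = 2) with no call, but was called lower in wild type than in control under upper-quartile scaling (-0.12, adjusted p = 0.0388).

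Enolase makes phosphoenolpyruvate. ENO1, the main form, fell by 0.11 ± 0.02 in wild type (adjusted p = 0.0046), from 562 ± 4.16 to 519.6 ± 1.19 FPKM (SD, n = 2), and stood at 522 ± 9.27 in K178R. The K178R fall of ENO1 (-0.10, adjusted p = 0.014) was lost without either control library or the second K178R library (adjusted p from 0.062 to 0.093). ENO2, the form typical of neurons and a known HIF target, moved far more and upward. Its libraries read 6.77 and 6.33 FPKM in control, 11.1 and 11.2 in wild type, and 7.51 and 7.27 in K178R. Wild type stood clear of the other 2 lines, which lay close together without overlapping. ENO2 rose by 0.69 ± 0.05 in wild type (adjusted p = 5.7e-05) and lay 0.53 ± 0.05 lower in K178R than in wild type (adjusted p = 2.4e-04). K178R against control gave 0.15 ± 0.05 (adjusted p = 0.052), and passed only with a pseudocount of 0.1 (adjusted p = 0.048) or a filter of 1 FPKM (adjusted p = 0.048). ENO2 stayed a small part of enolase FPKM, at 1.18% and 1.12% in control, 2.09% and 2.11% in wild type, and 1.40% and 1.39% in K178R.

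PKM, pyruvate kinase, had the largest fall among the enzymes in the wild type line. It was at 379 and 381 FPKM in control, 298 and 293 in wild type, and 297 and 296 in K178R. The 2 TEAD4 lines overlapped each other and lay far below control. PKM fell by 0.36 ± 0.02 in wild type (adjusted p = 3.0e-05) and by 0.36 ± 0.02 in K178R (adjusted p = 4.1e-05), and the 2 lines had no call against each other in the deposited values (adjusted p = 0.90). Under median-of-ratios and upper-quartile scaling PKM was called higher in K178R than in wild type, at 0.09 (adjusted p = 0.0123) and 0.10 (adjusted p = 0.00936). ENO1 gained the same call (adjusted p = 0.012 and 0.0102), and so did GPI (adjusted p = 0.0373 and 0.0302). The splice forms M1 and M2 cannot be separated in these values per gene.

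Lactate dehydrogenase reduces pyruvate to lactate. LDHA, a classical HIF target, was at 414 ± 1.82, 408 ± 5.28 and 413 ± 10.2 FPKM (SD, n = 2) in control, wild type and K178R and had no call in any comparison. Under the 2 scalings it was called lower in wild type than in control, at -0.11 (adjusted p = 0.0069) and -0.13 (adjusted p = 0.0031), and higher in K178R than in wild type, at 0.10 (adjusted p = 0.0118) and 0.11 (adjusted p = 0.0077). LDHB, which favours the reverse reaction, was at 319.8 ± 3.43, 298 ± 1.97 and 313 ± 0.61 FPKM (SD, n = 2). It fell by 0.10 in wild type (adjusted p = 0.0070), a call lost without the first control library (adjusted p = 0.051). Its higher level in K178R than in wild type (0.07, adjusted p = 0.036) was lost without any 1 of the 6 libraries, at adjusted p from 0.058 to 0.132.

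Together the 17 enzymes took 1.61% and 1.60% of all FPKM in control, 1.43% and 1.44% in wild type, and 1.49% and 1.49% in K178R. As a share, both TEAD4 lines were below control and did not overlap each other, with wild type lowest. The enzymes' summed FPKM was 4747.66 and 4687.43 in control, 4380.79 and 4341.31 in wild type, and 4225.8 and 4261.89 in K178R. By the sum K178R was lowest, so the order of the 2 TEAD4 lines depends on dividing by total FPKM.

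The regulatory kinases were all expressed at low to moderate levels. PFKFB4, which with PFKFB3 makes fructose-2,6-bisphosphate, the activator of phosphofructokinase, read 1.53 and 1.68 FPKM in control, 2.40 and 2.10 in wild type, and 1.29 and 1.43 in K178R. Wild type was highest and K178R lowest, with no overlap. PFKFB4 rose by 0.32 ± 0.07 in wild type (adjusted p = 0.0086), a call lost without the first control library (adjusted p = 0.054) or the first wild type library (adjusted p = 0.051). It was below wild type in K178R by 0.46 ± 0.07 (adjusted p = 0.0022) in every alternative. PFKFB3 was at 11.6 ± 0.01, 12.7 ± 0.14 and 12.8 ± 0.42 FPKM (SD, n = 2). It was called higher in both lines (0.12 and 0.13, adjusted p = 0.035 and 0.046), and both calls were lost under the replicate block and most other alternatives, including without any 1 control library (adjusted p from 0.106 to 0.147).

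PDK1 and PDK3 phosphorylate pyruvate dehydrogenase and so keep pyruvate from the mitochondrial cycle. PDK1 read 1.23 and 1.19 FPKM in control, 1.67 and 1.52 in wild type, and 1.89 and 1.73 in K178R. All TEAD4 libraries exceeded both controls, and the 2 TEAD4 lines did not overlap. It rose by 0.35 ± 0.06 in K178R (adjusted p = 0.0083) and by 0.23 ± 0.06 in wild type (adjusted p = 0.018). Under median-of-ratios and upper-quartile scaling the wild type rise of PDK1 was 0.18 and 0.17 and not called (adjusted p = 0.0506 and 0.06). The K178R call was lost without the second control library (adjusted p = 0.052) or the first K178R library (adjusted p = 0.053), and the wild type call without either control library or the first wild type library (adjusted p from 0.059 to 0.098). PDK3 had means of 1.38 ± 0.11, 1.62 ± 0.11 and 1.36 ± 0.07 FPKM (SD, n = 2) and no call.

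HIF1A, the oxygen-labile subunit of HIF-1, did not pass in any comparison. Its levels were 33.1 ± 0.08, 33.9 ± 1.25 and 31.9 ± 1.06 FPKM (SD, n = 2) in control, wild type and K178R. HIF-1 alpha protein, which is set mainly by degradation, was not measured. EGLN1 (PHD2), the main hydroxylase that marks HIF alpha for degradation and itself a HIF target, read 10.5 and 10.5 FPKM in control, 13.6 and 13.6 in wild type, and 11.0 and 11.4 in K178R. The wild type libraries were the highest and no groups overlapped. EGLN1 rose by 0.35 ± 0.04 in wild type (adjusted p = 3.7e-04) and lay 0.26 ± 0.04 lower in K178R than in wild type (adjusted p = 0.0016), with no call in K178R against control (adjusted p = 0.15).

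EGLN3 (PHD3), another HIF-inducible hydroxylase, showed the same order at a lower level. It was at 1.39 and 1.25 FPKM in control, 2.39 and 2.43 in wild type, and 1.67 and 1.47 in K178R. The wild type mean was 1.83 times that of control. EGLN3 rose by 0.56 ± 0.07 in wild type (adjusted p = 5.3e-04) and lay 0.41 ± 0.07 lower in K178R than in wild type (adjusted p = 0.0025), again with no call in K178R against control (0.15 ± 0.07, adjusted p = 0.15). The calls of both hydroxylases held in every alternative.

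Among the other hypoxia response genes, BHLHE40 (DEC1), a transcriptional repressor of the circadian and hypoxia pathways, changed most in the wild type line. Its libraries read 2.36 and 2.78 FPKM in control, 7.03 and 6.92 in wild type, and 3.93 and 3.31 in K178R. The groups were separate, with K178R between control and wild type and nearer to control. BHLHE40 rose by 1.16 ± 0.08 in wild type (adjusted p = 7.0e-05), to 2.71 times the control mean, and lay 0.79 ± 0.08 lower in K178R than in wild type (adjusted p = 4.5e-04). Its rise in K178R against control (0.37 ± 0.08, adjusted p = 0.018) was lost without the first control library (0.29, adjusted p = 0.099) and without the first K178R library (0.27, adjusted p = 0.084).

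MXI1, a MAX partner that opposes MYC, gave a clear single step. It was at 8.44 and 8.41 FPKM in control, 13.3 and 13.4 in wild type, and 8.87 and 9.67 in K178R. Only wild type was far from the others. MXI1 rose by 0.61 ± 0.05 in wild type (adjusted p = 9.9e-05) and lay 0.48 ± 0.05 lower in K178R than in wild type (adjusted p = 3.6e-04), with 0.12 ± 0.05 in K178R against control (adjusted p = 0.10).

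KDM3A, an oxygen-dependent demethylase of histone H3, also peaked in wild type. It read 4.48 and 4.60 FPKM in control, 5.98 and 6.03 in wild type, and 4.39 and 4.66 in K178R, where the K178R and control libraries overlapped. It rose by 0.34 ± 0.05 in wild type (adjusted p = 0.0012) and was lower by the same size in K178R than in the wild type line (-0.34 ± 0.05, adjusted p = 0.0015). The 2 mitophagy receptors differed from each other. BNIP3L (NIX) was at 5.24 and 5.21 FPKM in control, 6.82 and 7.13 in wild type, and 4.59 and 5.11 in K178R, so that wild type alone was high. It rose by 0.36 ± 0.06 in wild type (adjusted p = 0.0018) and lay 0.45 ± 0.06 lower in K178R than in wild type (adjusted p = 9.5e-04).

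BNIP3, the other receptor, read 19.2 and 19.7 FPKM in control, 20.7 and 20.6 in wild type, and 17.9 and 16.6 in K178R. K178R was lowest and wild type only slightly above control. It lay 0.25 ± 0.04 lower in K178R than in wild type (adjusted p = 0.0031) in every alternative. The fall by 0.16 against control in K178R (adjusted p = 0.031) was lost without either control library or the second K178R library (adjusted p from 0.087 to 0.147), and wild type against control gave 0.09 (adjusted p = 0.13).

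NDRG1, a stress-induced gene long used as a hypoxia marker, was the one member called in opposite directions against control in the 2 TEAD4 lines. It was measured at 5.44 and 5.59 FPKM in control, 6.63 and 7.34 in wild type, and 4.26 and 4.30 in K178R. Control lay between the TEAD4 lines, and no groups overlapped. NDRG1 rose by 0.29 ± 0.06 in wild type (adjusted p = 0.0041), fell by 0.30 ± 0.06 in K178R (adjusted p = 0.0084), and lay 0.60 ± 0.06 lower in K178R than in wild type (adjusted p = 3.2e-04). The K178R fall against control was lost without the second control library (-0.29, adjusted p = 0.054), while the other 2 calls held in every alternative.

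The collagen prolyl 4-hydroxylase subunits P4HA1 and P4HA2, which need oxygen to modify collagen, were both lower in K178R than in wild type. P4HA1 read 7.11 and 6.82 FPKM in control, 8.03 and 8.22 in wild type, and 6.75 and 6.49 in K178R. Wild type was highest. P4HA1 lay 0.26 ± 0.04 lower in K178R than in wild type (adjusted p = 0.0033), and its rise of 0.20 ± 0.04 in wild type (adjusted p = 0.0094) was lost under both scalings and without the second control library (adjusted p = 0.058). P4HA2 read 3.57 and 3.46 FPKM in control, 4.08 and 3.79 in wild type, and 2.47 and 2.73 in K178R. Here K178R stood apart as the lowest. P4HA2 lay 0.45 ± 0.06 lower in K178R than in wild type (adjusted p = 0.0012), and its fall of 0.33 ± 0.06 against control (adjusted p = 0.0087) was lost without the first control library (adjusted p = 0.058) or the first K178R library (adjusted p = 0.051).

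ADM, the vasodilator peptide adrenomedullin, joined SLC2A1 in rising in both lines with K178R highest. It was at 18.3 and 16.5 FPKM in control, 27.4 and 25.4 in wild type, and 29.4 and 33.7 in K178R. All TEAD4 libraries were above both controls, and wild type and K178R did not overlap. ADM rose by 0.57 ± 0.07 in wild type (adjusted p = 7.8e-04) and by 0.82 ± 0.07 in K178R (adjusted p = 3.7e-04), to 1.81 times the control mean. The step from wild type to K178R (0.24 ± 0.07, adjusted p = 0.031) was lost without the second wild type library (adjusted p = 0.14) or the second K178R library (adjusted p = 0.15). VEGFA, the angiogenic growth factor, was at 8.90 ± 0.05, 9.21 ± 0.14 and 9.996 ± 0.36 FPKM (SD, n = 2). Its call in K178R against control (0.15, adjusted p = 0.039) was lost without any 1 of the 6 libraries, at adjusted p from 0.053 to 0.181. Under the 2 scalings it was called higher in K178R than in wild type (0.18 and 0.19, adjusted p = 0.0113 and 0.00953). ANKRD37, an ankyrin repeat gene induced by HIF, was at 0.541 ± 0.05, 0.800 ± 0.09 and 0.561 ± 0.02 FPKM (SD, n = 2). It was called higher in wild type (0.22, adjusted p = 0.031) and below wild type in K178R (-0.20, adjusted p = 0.047). The wild type call was lost under both scalings and without either control library or the second wild type library, and the other under both scalings and without any 1 of the 6 libraries, at adjusted p from 0.059 to 0.219.

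**Figure D4:**
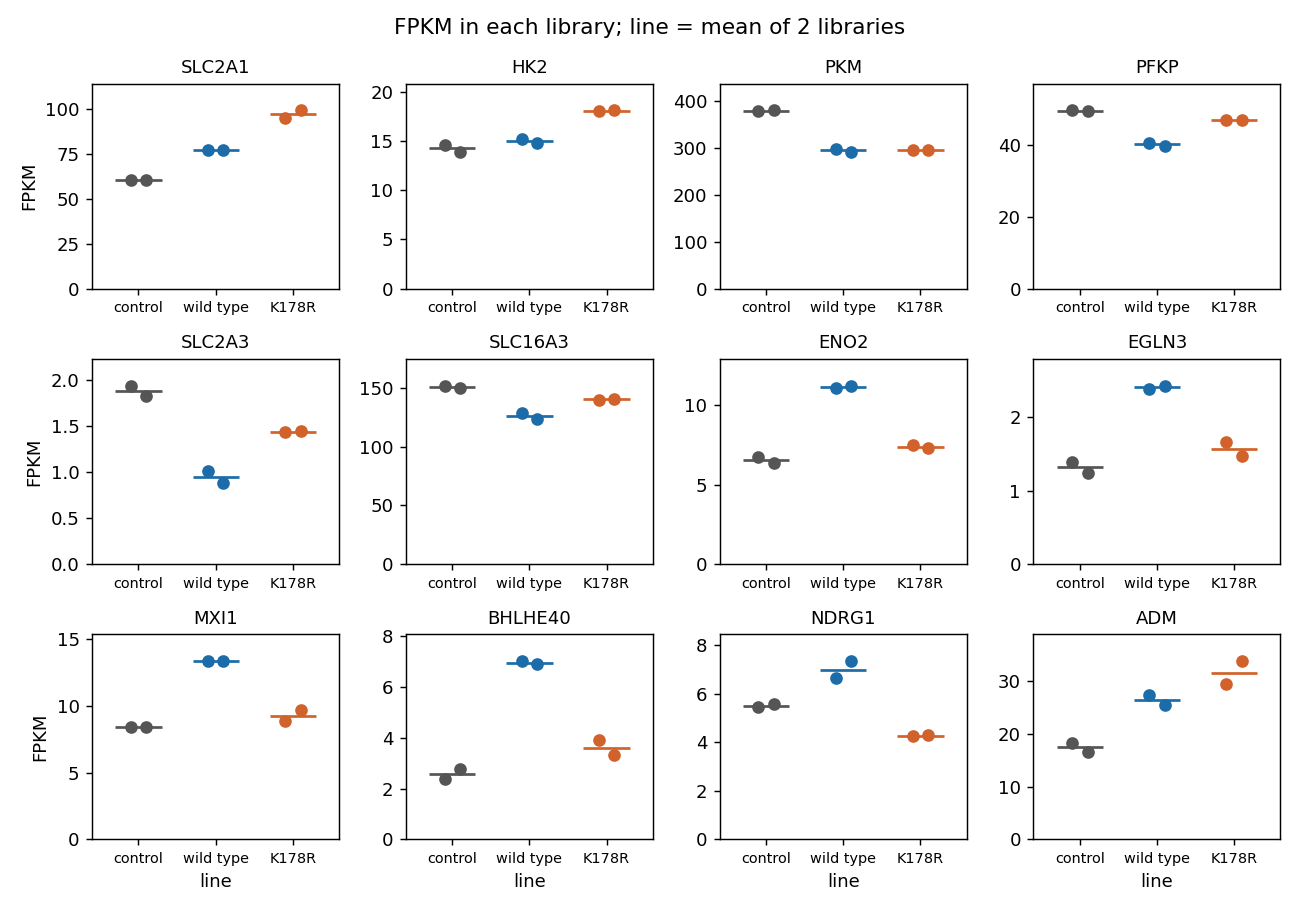
FPKM of 12 members in each library (points, linear axes from 0) with the mean of the 2 libraries of each line (horizontal bar). SLC2A1 and ADM step up from control to wild type to K178R, ENO2, EGLN3, MXI1 and BHLHE40 peak in wild type, NDRG1 is above control in wild type and below it in K178R, and PKM is low in both TEAD4 lines.

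By their calls in the deposited values, the members sort into a few patterns. The most frequent, with 10 members, was higher in wild type than in control, no call in K178R against control, and lower in K178R than in that line. These were ALDOA, ANKRD37, BNIP3L, EGLN1, EGLN3, ENO2, KDM3A, MXI1, P4HA1 and PFKFB4. Each part of this pattern was also common over all genes. Of these, 37.6% rose in wild type, and 34.5% were lower when K178R was compared with it directly. In K178R against control, 8835 of 11445 genes had no call. The share of all genes with each joint pattern was not counted, so these counts do not set the members apart from other genes. In 6 members, ALDOC, ENO1, GPI, PFKL, PKM and TPI1, both TEAD4 lines were lower than control without a call between them. SLC2A1 and ADM were higher in all 3 comparisons, and HIF1A, LDHA, PDK3, PFKM and PGAM1 had no call in any.

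Several members share sequence with other genes, and the counting program was not given. In GENCODE 29, 15 members have pseudogenes named after them, with 62 for GAPDH, 39 for BNIP3, 13 for PGAM1 and 6 for LDHA, so reads may have been split or added there. The exons of 20 members are overlapped by those of a gene on the other strand, among them TPI1 by SPSB2, SLC16A3 by CSNK1D and BNIP3L by PNMA2. Without a statement that strand was used, reads of such pairs cannot be told apart.

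Genes related to the members were read from 5 further lists holding 103 tested genes. Over these lists 43 genes were higher and 17 lower in wild type than in control, with a median log2 change of 0.10 beside 0.09 for all genes. In K178R against control 17 were higher and 18 lower, and in K178R against wild type 12 were higher and 40 lower. As shares of the 103 genes, the higher and lower calls made up 41.7% and 16.5% in wild type and 16.5% and 17.5% in K178R against control, and 11.7% and 38.8% in K178R against wild type. The shares over all genes, as given above, were 37.6% and 12.2%, 11.7% and 11.1%, and 10.4% and 34.5%. The counts against wild type became 23 and 27, and 24 and 26, under the 2 scalings. No related gene was called in opposite directions against control in the 2 TEAD4 lines.

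All changes of related genes named here passed the test in the comparison given. Among 15 tested genes of the HIF machinery, 4 rose and 2 fell in wild type, 2 rose and 1 fell in K178R, and 8 were lower and 2 higher in K178R than in wild type. In wild type 26.7% of the list rose and 13.3% fell, beside 37.6% and 12.2% of all genes. In K178R against control 13.3% rose and 6.7% fell, beside 11.7% and 11.1%. In K178R against wild type 53.3% were lower and 13.3% higher, beside 34.5% and 10.4%. EPAS1, which encodes HIF-2 alpha, moved most. It was at 4.71 and 4.92 FPKM in control, 12.8 and 12.8 in wild type, and 9.42 and 8.89 in K178R, so the lines were well separated. EPAS1 rose by 1.25 ± 0.05 in wild type (adjusted p = 3.9e-06) and by 0.80 ± 0.05 in K178R (adjusted p = 3.3e-05), and lay 0.44 ± 0.05 lower in K178R than in wild type (adjusted p = 4.3e-04). ARNT, the shared partner of HIF alpha subunits, rose by 0.37 in wild type, and VHL, which tags hydroxylated HIF alpha, by 0.35 in wild type and 0.13 in K178R. ELOB, a partner of VHL, was lower in K178R than in control (-0.24) and than in wild type (-0.31), and CITED2, a competitor of HIF alpha for its coactivators, lay lower in K178R than in wild type (-0.37).

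Of 38 tested further HIF targets, 16 rose and 8 fell in wild type, 7 rose and 9 fell in K178R, and 14 were lower and 5 higher in K178R than in wild type. In wild type 42.1% of the list rose and 21.1% fell, beside 37.6% and 12.2% of all genes. K178R gave 18.4% higher and 23.7% lower than control, beside 11.7% and 11.1%. Directly against wild type, 36.8% were lower and 13.2% higher in K178R, beside 34.5% and 10.4%. PLOD2, a collagen lysyl hydroxylase, rose by 0.48 in K178R. ANG rose by 0.88 and DDIT4L by 0.73 in wild type, and ANG and PNRC1 were lower in K178R than in wild type (-0.64 and -0.86). HMOX1, haem oxygenase, fell by 0.43 in K178R, and ANGPTL4 lay lower in K178R than in wild type (-0.57).

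Pyruvate and lactate handling gave 14 higher and 2 lower of 25 tested genes in wild type, 5 and 3 in K178R, and 2 higher and 10 lower in K178R against wild type. The 14 are 56.0% and the 10 are 40% of the list, again beside 37.6% and 34.5% of all genes. PDP1, a phosphatase that reverses PDK action on pyruvate dehydrogenase, was measured at 219.8 and 219.8 FPKM in control, 129 and 124 in wild type, and 139 and 138 in K178R. Both TEAD4 lines were far below control. PDP1 fell by 0.79 ± 0.03 in wild type (adjusted p = 2.6e-06) and by 0.66 ± 0.03 in K178R (adjusted p = 4.8e-06). PDK2, which opposes PDP1, rose by 0.44 in wild type and was below wild type in K178R (-0.49), and pyruvate carboxylase (PC) rose by 0.58 in wild type. SLC16A7, a lactate and pyruvate transporter, rose by 0.37 and the glycerol-3-phosphate dehydrogenase GPD1 by 0.42 in K178R. MDH1, the cytosolic malate dehydrogenase, lay lower in K178R than in wild type (-0.32), and so was BSG (-0.22), the chaperone of lactate transporters.

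Other isoforms and glycogen genes gave 7 higher and 3 lower of 17 tested in wild type, 1 and 2 in K178R, and 2 higher and 6 lower in K178R against wild type. The 7 are 41.2% and the 6 are 35.3% of the list, near the 37.6% and 34.5% of all genes. The 3 lower in wild type are 17.6%, beside 12.2%. In K178R against control 5.9% were higher and 11.8% lower, beside 11.7% and 11.1%. The 2 higher in K178R than in wild type are 11.8%, beside 10.4%. GYS1, glycogen synthase, rose in steps like SLC2A1, from 20.1 and 19.7 FPKM in control to 31.5 and 29.8 in wild type and 35.4 and 36.7 in K178R. Its log2 change was 0.60 ± 0.04 in wild type (adjusted p = 4.3e-05), 0.83 ± 0.04 in K178R (adjusted p = 1.15e-05) and 0.23 ± 0.04 between them (adjusted p = 0.0030). The muscle enolase ENO3 rose by 0.49 and the bisphosphoglycerate mutase BPGM by 0.45 in wild type, and BPGM lay lower in K178R than in wild type (-0.45), as was PGM1 (-0.38). ADPGK, an ADP-dependent glucokinase, was higher in K178R than in wild type (0.39), and PYGL, glycogen phosphorylase, fell by 0.16 in K178R. PGAM5, which is on this list by its name but is not a glycolytic enzyme, fell by 0.13 in K178R. It is counted among the lower genes of the list in both TEAD4 lines.

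Of 8 tested pentose phosphate genes, 2 rose and 2 fell in wild type, 2 rose and 3 fell in K178R, and K178R against wild type gave 1 higher and 2 lower. In wild type that is 25.0% each way, beside 37.6% higher and 12.2% lower of all genes. In K178R against control, 25.0% were higher and 37.5% lower, beside 11.7% and 11.1%. In K178R against wild type, 12.5% were higher and 25.0% lower, beside 10.4% and 34.5%. With 8 genes tested, 1 gene makes up 12.5% of the list. The transketolase TKT fell by 0.11 in wild type and 0.19 in K178R. H6PD, an enzyme of the endoplasmic reticulum, rose by 0.24 in both lines. RPE was higher (0.16) and TALDO1 lower (-0.15) in K178R than in wild type.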

How the data were processed

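RNA sequencing values of 6 HCT116 libraries were used as deposited, in FPKM per gene. Per the submitters' processing notes, Bowtie 0.12.2 and hg18 were used; for the FPKM program, the annotation and any use of strand, nothing is given in the sources used here. Each file holds 20030 rows, of which 4 with a repeated identifier were left out; 4066 genes were 0 in every library. Values were tested as log2(FPKM + 1) with limma 3.58.1 with trend (R 4.3.3), two-sided, in 1 fit of all 6 libraries with 3 residual degrees of freedom, Benjamini-Hochberg adjusted over 11445 genes. A count model needs counts and was not run, and the files give no read totals. The fit was run on simulated data with independent noise, few changed genes, all in wild type, and no scaling difference between libraries. These data have many more calls and depend on scaling, so that run checks the code and not the calls above.

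The members and lists were chosen with earlier results of these data known, so no list has a p of its own. Members called with an absolute log2 change of at least 0.25 in any comparison are given in every library, and others by group mean and SD. From each related list, the 3 largest called changes of each comparison are named, except for a few genes that are not reported here. There were 14 alternatives: another pseudocount, other filters, other scalings, a replicate block, each library left out, averaged controls, and limma without trend. In a fit without 1 library, the remaining one is assumed to vary like the other groups. Promoters are from RefSeq (GRCh38.p14).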

Additional observations from a re-analysis of the deposited data

How the results depend on the processing

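Over 14 alternatives, 1425 of 1593 values of the members stayed on the same side of the threshold. Called values among these kept their direction, while values without a call were counted whatever their sign. Another 146 lost their call and 18 gained one with the direction unchanged, and 4 changed sign and lost their call. Members higher in K178R than in control went from 8 to 5 with no filter on low values and to 4 with the controls averaged as 1 sample, and to between 4 and 6 with 1 library left out. Members lower there went from 13 to 5 with averaged controls, 8 with limma without trend, and between 6 and 13 with 1 library left out (6 without either control library, 8 without the first K178R library and 7 without the second). Related genes in the same comparison went from 17 higher to 9 with no filter, 7 with averaged controls and 8 to 15 with 1 library left out, and from 18 lower to 11 without trend and 11 to 18 with 1 library left out. Related genes lower in wild type than in control went from 17 to between 10 and 15 with 1 library left out. In K178R against wild type, members called higher went from 7 to 12 under median-of-ratios scaling and 12 under upper-quartile scaling, related genes called higher from 12 to 23 and 24, and related genes called lower from 40 to 26 under upper-quartile scaling. Calls over all genes in K178R against control went from 1342 higher and 1268 lower to 660 and 568 with averaged controls, and lay between 733 and 1285 higher and 633 and 1259 lower with 1 library left out. Under median-of-ratios and upper-quartile scaling ALDOA turned to -0.0065 and -0.0222 in wild type against control, and GAPDH to 0.0183 and 0.024 in K178R against wild type. Under upper-quartile scaling, wild type against control turned to -0.0777 for MDH2 (adjusted p = 0.0384) and -0.0093 for RPIA. Beyond the construction of each alternative, the cause was not tested.

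With the replicate number as a block, the members' counts were 16 higher and 11 lower in wild type against control, 6 and 13 in K178R against control, and 6 and 15 in K178R against wild type. The numbers do not pair the libraries by design, and the differences between replicate 1 and 2 correlated across 4153 genes at -0.0267, -0.0386 and 0.0468 for the 3 pairs of groups. With 2 libraries a group and no read totals, the precision of genes near the filter of 0.5 FPKM, such as ANKRD37 and CA9, is the weakest.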
